A study of Mus musculus with 9 samples.

Results

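Sorted pancreatic cells that had received reprogramming virus were compared with native islets across every gene measured on 6 of the 9 arrays of the series, 3 titled as induced beta cells and 3 titled as whole islet. Members were taken from the array titles alone, with no measured value used. The induced cells came from adult Rag-/- mice, which cannot form mature T and B lymphocytes. Their pancreas had received the M3 adenovirus 1 month earlier, and cells positive for green fluorescent protein (GFP) were collected by flow cytometry, about 5000 per sample, of which the labels call 22% insulin-positive. In the published work M3 denotes a mixture of viruses for Neurog3, Pdx1 and Mafa, although the labels do not spell it out. The islets were picked by hand from adult animals with a Pdx-GFP transgene, 4 to 5 per sample, with vessels, stroma and the other hormone cells still in place. The 3 remaining arrays held some 10000 cells each of Pdx-GFP pancreas from which islets had been removed, and they entered the normalization and the estimate of spread.

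Mouse line, virus, sorting and hand picking all went with the group, so that their shares in any difference below cannot be told apart. Eif2s3y and Kdm5d, genes of the Y chromosome, gave signal on all 3 induced arrays and on 0 of the 3 islet arrays, so that sex was confounded as well and its part cannot be told apart. The labels speak of independent repeats and name no animals, so each p-value measures the scatter among these samples alone, part of which may be technical. In bulk RNA, fewer cells of a type and less RNA per cell cannot be told apart.

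An adult beta cell is a quiescent, excitable epithelial cell that couples glucose metabolism to exocytosis and is tuned by G protein-coupled receptors and cyclic AMP. It sits on a basement membrane made largely by islet endothelium, because beta cells secrete little of their own. Cells that are stressed, infected or detached turn on immediate early transcription factors, NF-kappaB targets, p53 targets and interferon-stimulated genes within a short time. Exocrine duct and acinar cells, in contrast, are polarized epithelium with tight junctions, keratins, secreted mucins and serine proteases.

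Signals are background-subtracted intensities after quantile normalization, and differences are given as log2 of induced over islet after an offset of 11.9 was added to every signal, which shrinks the change of dim genes. Each adjusted p comes from limma's moderated test with Benjamini-Hochberg adjustment, and a gene was called below 0.05. On the induced and islet arrays, 13476 to 13764 of 24613 probes were above background. Log2 signals of array pairs correlated at 0.994 to 0.996 within each group and at 0.884 to 0.886 between them, a description across probes, which are not independent.

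Of 9937 genes, 2387 (24.0%) were higher in induced cells and 2705 (27.2%) lower. At least 2-fold differences were found for 771 higher genes (7.76%) and 611 lower genes (6.15%). Of the 2387 higher and 2705 lower genes together, 5072 had 3 arrays per group that did not overlap, so non-overlap adds little to a call. Genes named below by rule were taken from these, so separation of their arrays was a condition of being named and is no further support. Higher genes made up 46.9% of calls, but 60.2% with a common median for all arrays, 62.6% with equal noise and 41.3% in the values as deposited, so the balance between rises and falls depended on scaling. With an offset of 50 the 2-fold genes numbered 373 higher and 217 lower. Lists of genes are set against these shares of all genes, and no list was tested as a set.

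Markers of other cell types differed between the groups. All 16 measured endothelial markers were above background on every islet array, 14 of them were lower in induced cells, and their summed signal was 230 to 245 on induced arrays, against 3158 to 3258 on islet arrays. Cd34, Esm1, Tek and Tie1 were above background on no induced array. Summed stromal and pericyte markers reached 164 to 180.2 in induced cells and 834 to 903 in islets. Macrophage markers reached 174 to 191 in induced cells and 336 to 379 in islets, with 3 of 13 higher and 9 lower. Of the 8 measured beta cell markers all were lower, with sums of 8333 to 12106 in induced cells and 25412 to 26741 in islets. Duct markers went the other way, with 8 of 8 higher and sums of 6397 to 6762 in induced cells, against 1598 to 1712 in islets. Of 5 alpha cell markers, 0 were higher and 4 lower, with sums of 7334 to 11139 in induced cells and 20549 to 22612 in islets, and of 5 delta and PP cell markers, 1 was higher and 2 were lower, with sums of 15951 to 18070 in induced cells and 32090 to 33061 in islets. Erythrocyte markers summed to 9.51 to 18.7 in induced cells and 998 to 1194 in islets. For acinar markers the sums were 62303 to 70312 in induced cells and 73865 to 74227 in islets, with 2 of 9 higher and 3 lower. Non-islet arrays reached 90715 to 93090, and all 9 acinar markers were above background on every array of each group. The islet arrays thus carried strong acinar signal too. The part of these cell types in the results below was not tested, unless a value is given.

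Transcription factors separated the groups through immediate early, interferon and epithelial lists that held more rises than falls. Vascular and homeobox lists held more falls, although the largest factor rise, Tgif1, is itself a homeobox gene. Of 504 measured factor genes (856 were on the array), 141 were higher and 127 lower, with 52 (10.3%) at least 2-fold higher and 28 (5.56%) at least 2-fold lower, and a median of 0.00 against -0.04 for all genes. Tgif1, a homeobox corepressor of Smad-driven transcription, gave the largest rise, with signals of 546, 521 and 621 in induced cells, against 10.1, 11.2 and 11 in islets (log2 difference 4.66, SE 0.098, adjusted p = 7.11e-11). Its other probes rose less, by 0.94 to 2.21. Atf3, a stress-induced leucine zipper factor, had signals of 656, 643 and 608 in induced cells, against 18.7, 19.4 and 18.2 in islets (4.40, adjusted p = 2.09e-09). Onecut2, a factor of the early foregut and pancreas, reached 208, 228 and 204 in induced cells, against 8.56, 7.64 and 9.58 in islets (3.46, adjusted p = 2.28e-09). For these 3 genes every induced array lay far above every islet array.

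**Figure D1:**
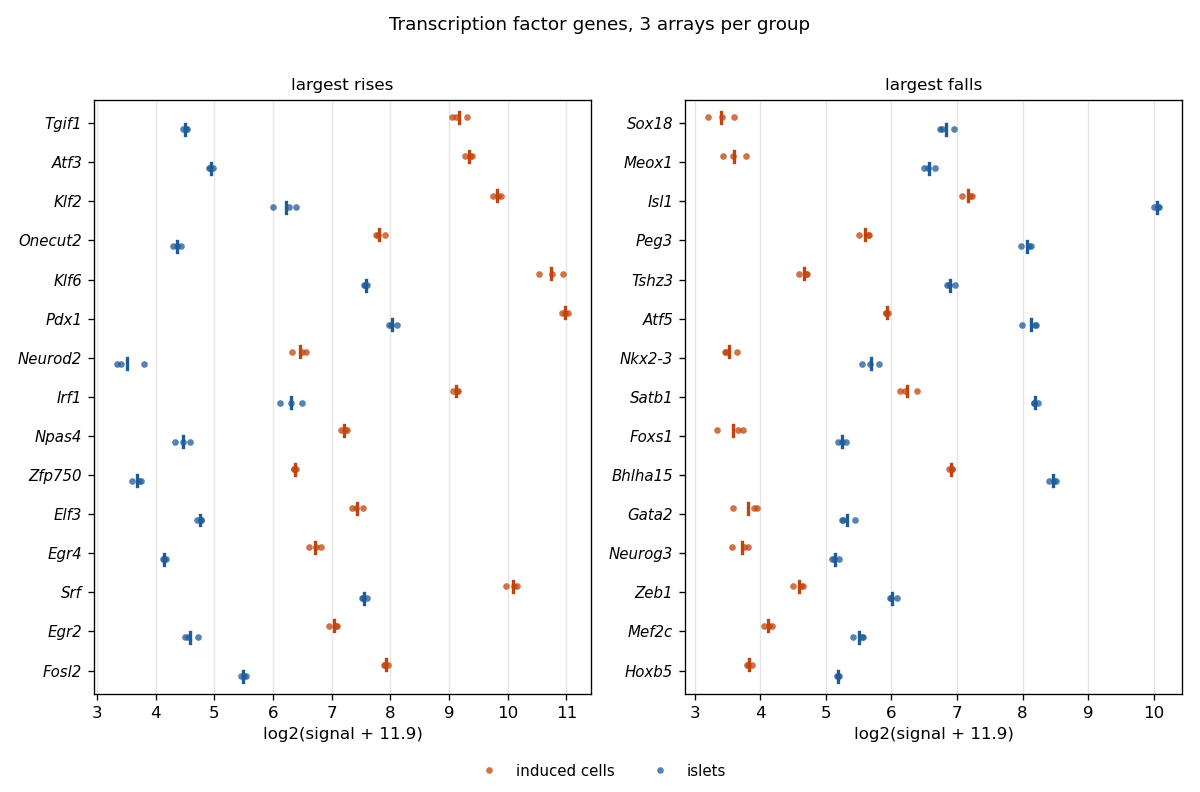
Signals of the 15 transcription factor genes with the largest rises (left) and the 15 with the largest falls (right) in induced cells against islets. Each dot is an array on a log2 axis after the offset of 11.9, and each vertical bar is the mean of 3 arrays. Genes were drawn only where the induced and islet arrays do not overlap. Tgif1 lies at the top of the rises and Sox18 at the top of the falls.

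Factors of neurons were among the rises. Neurod2, a neurogenic basic helix-loop-helix factor related to the endocrine Neurod1, had signals of 77.9, 82.3 and 68.4 in induced cells and was above background on no islet array, at least 6.05-fold higher (adjusted p = 1.45e-08). Npas4, an activity-dependent factor of neurons and beta cells, had signals of 142, 138 and 131 in induced cells, against 8.17, 10.1 and 12.1 in islets (2.76, adjusted p = 6.07e-09). Pdx1 stood at 2085, 1997 and 1926 in induced cells, against 246, 239 and 265 in islets (2.95), and whether its probe also reads viral RNA is not known. Neurog3, likewise carried by the published virus mixture, was above background on no induced array but on every islet array, with signals of 22.2, 23.2 and 24.9 there. It was at least 2.42-fold lower (adjusted p = 1.33e-05), and whether its probe can read viral RNA is not known either.

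Families with immediate early members held more rises than falls. Of the 37 measured basic leucine zipper genes, 17 were higher and 5 lower, 10 and 2 of them at least 2-fold, and the median was 0.24. Besides Atf3, the rises included the AP-1 subunits Fosl2 (2.43), Fosb (1.78) and the small Maf factor Maff (2.17). The probe of Fosl2 with the smallest change was not called (0.37, adjusted p = 0.0525). Members at least 2-fold lower were Atf5, a factor of the amino acid response, at -2.20 and the clock-controlled Dbp at -1.20. Among 19 Kruppel-like, Sp and Egr genes, 12 were higher and 1 lower, 6 and 0 of them at least 2-fold, with a median of 0.60. Klf2 had signals of 849, 934 and 905 in induced cells, against 52.2, 65.8 and 71.7 in islets (3.60, adjusted p = 1.91e-08), and Klf6 of 1707, 1466 and 1948 in induced cells, against 183, 176 and 178 in islets (3.16, adjusted p = 1.98e-09). Klf2 is best known from endothelium, whose markers were nearly all lower on these arrays. The early growth response genes Egr4 and Egr2 rose by 2.57 and 2.45.

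Srf, the serum response factor, which drives early growth response and actin genes through the CArG box, had signals of 1095, 996 and 1132 in induced cells, against 171, 174 and 182 in islets (2.53, adjusted p = 8.81e-09), with its other probe at 1.33. Every induced array exceeded every islet array. Its own upstream sequence holds 2 CArG boxes, shown in capitals because the gene both binds this element and rose (RefSeq, GRCm38.p6, chr17:46556175-46556284, minus strand, the nearer end before the annotated start).
Srf: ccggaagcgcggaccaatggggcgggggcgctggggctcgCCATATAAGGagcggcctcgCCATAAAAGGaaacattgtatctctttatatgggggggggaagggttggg
A CArG box lay within 250 bases before the start in 19 of 607 genes (3.13%) at least 2-fold higher that had a promoter sequence, in 3 of 481 (0.624%) at least 2-fold lower, in 128 of 8064 tested genes (1.59%) and in 439 of 27025 genes (1.62%) in all, searched on both strands. A match is a description of letters and not a site of binding.

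Most interferon and cytokine factors were higher. Of 11 measured Stat and Irf genes, 9 were higher and 1 lower, 4 and 0 of them at least 2-fold, with a median of 0.95. Irf1 had signals of 552, 556 and 527 in induced cells, against 78.2, 67.7 and 57.6 in islets (2.81, other probes 1.13 to 1.84, adjusted p = 1.08e-08), while Irf9, the DNA-binding part of the interferon-stimulated complex, had 129, 130.4 and 139.8 in induced cells, against 28.2, 25.4 and 28.2 in islets (1.89). Irf7, which amplifies type I interferon, and Stat3, which relays interleukin signals, rose by 1.49 and 1.25. All induced arrays of these 4 genes lay above all islet arrays. In the Rel, NF-kappaB and Nfat family 4 of 8 genes were higher and 2 lower, 2 and 0 of them at least 2-fold, including Rela at 599, 621 and 549 in induced cells, against 113, 133 and 144 in islets (2.08, adjusted p = 2.99e-08) and Relb at 1.56.

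Epithelial factors held more rises than falls and vascular factors more falls. Of 24 epithelial and duct factors, 13 were higher and 3 lower, 10 and 2 of them at least 2-fold. Elf3, an Ets factor of differentiated epithelium, had signals of 150.1, 172 and 158 in induced cells, against 15.4, 14.3 and 15.4 in islets (2.67, other probe 1.93, adjusted p = 5.33e-07). Sox9, a regulator of duct and progenitor cells, stood at 205, 196 and 182 in induced cells, against 44.7, 43.8 and 43.2 in islets (1.88). Outside that list, Prox1, a factor of early pancreas and lymphatic vessels, stood at 155, 149.8 and 152 in induced cells, against 32.9, 36.3 and 37 in islets (1.80). Each induced array was above each islet array in all 3. Zfp750, an epidermal differentiation factor, was above background on no islet array and at least 5.68-fold higher (adjusted p = 9.9e-08). Duct markers, whose sums are given above, moved with these genes, but Sox9 is itself one of those markers.

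Of 16 endothelial and blood factors, 2 were higher and 11 lower, 2 and 6 of them at least 2-fold, with a median of -0.75. Sox18, which specifies lymphatic endothelium, had islet signals of 97.9, 112 and 95.7 and was at least 7.78-fold lower (adjusted p = 5.35e-09), and Meox1, a homeobox gene of mesoderm, at least 6.54-fold (adjusted p = 4.7e-08). Both were above background on no induced array. Gata2 stood at -1.51 and Mef2c at -1.39. The exceptions were Klf2 and Tal1, a factor of blood and endothelium, which rose by 1.10. Among 15 stromal factors, 4 were higher and 8 lower, 1 and 2 of them at least 2-fold: Zeb1, a repressor of epithelial genes, stood at 13.2, 12.7 and 10.8 in induced cells, against 51, 51.6 and 56 in islets (-1.42), Foxs1, a pericyte forkhead gene, was at least 2.60-fold lower, and Osr1, a factor of embryonic mesoderm, was at least 3.93-fold higher (adjusted p = 1.18e-06 and 2.85e-06).

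The homeobox family held more falls than rises: of 64 measured genes, 10 were higher and 23 lower, 5 and 8 of them at least 2-fold. The share at least 2-fold higher (7.81%) was near that of all genes (7.76%), while 12.5% were at least 2-fold lower, against 6.15%. The median was -0.09, against -0.04 for all genes, and 31 of the 64 were not called. Rises such as Tgif1 are given above, and falls follow. Isl1, required in all islet hormone cells, had signals of 138, 135 and 123 in induced cells, against 1018, 1056 and 1076 in islets (-2.88, SE 0.11). Tshz3, a teashirt gene, had 12.1, 13.9 and 14.2 in induced cells, against 113, 104 and 106 in islets (-2.24), and Satb1, a chromatin organizer, had 61.8, 72.2 and 57.9 in induced cells, against 278, 289 and 278 in islets (-1.96, adjusted p = 2.55e-08). In each the induced arrays were all lower than the islet arrays, and Tshz3 and Satb1 were above background on no non-islet array. Nkx2-3 was at least 3.52-fold lower by its brightest probe (adjusted p = 2.35e-08), with its other probe at -0.50. The imprinted zinc finger gene Peg3 stood at 33.6, 38.1 and 38.6 in induced cells, against 262, 269 and 240.4 in islets (-2.47). Bhlha15, a secretory cell factor, fell by 1.55 on the log2 scale, although its probe with the smallest change was not called (-0.20, adjusted p = 0.19).

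Further factor families are given by their counts and a few members. Of 40 basic helix-loop-helix genes, 13 were higher and 10 lower, 6 and 4 of them at least 2-fold: besides Neurod2 and Npas4, Ptf1a, which drives acinar fate, had signals of 271, 313 and 283 in induced cells, against 41.9, 49.2 and 42.3 in islets (2.42, adjusted p = 6.46e-09), while Id1, an inhibitor of the family, stood at -1.03. Of 13 Ets genes, 3 were higher and 2 lower, 3 and 0 of them at least 2-fold, namely Elf3, Ets2 (1.35) and Etv1, whose brightest probe had signals of 844, 818 and 798 in induced cells, against 269, 253 and 327 in islets while its other probes stood at 0.10 and 0.19 on the log2 scale. Of 9 Tead, Runx, Grhl and Tfap2 genes, 2 were higher and 0 lower, 2 and 0 of them at least 2-fold: Tead2, a partner of Yap, rose by 1.41 and Grhl2, a regulator of epithelial junctions, was at least 1.95-fold higher, and at an unadjusted p below 0.05 limma's test also gave 2 higher and 0 lower. Of 17 forkhead genes, 6 were higher and 4 lower, 2 and 1 of them at least 2-fold, with Foxq1 at least 2.28-fold higher, Foxa3 at 507, 535 and 535 in induced cells, against 205, 166 and 164 in islets, and Foxa2, an endoderm factor active in beta cells, at -0.83 on the log2 scale. Of 12 Sox and Tcf/Lef genes, 3 were higher and 4 lower, 1 and 2 of them at least 2-fold, and the vascular Sox17, next to Sox18, was at least 1.36-fold lower. The relative median of that list turned with equal noise.

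The Zfp and nuclear receptor families lay near or below the background. Of 161 Zfp genes, 30 were higher and 45 lower, 3 and 4 of them at least 2-fold, and of 24 nuclear receptors, 9 were higher and 4 lower, 0 and 1 of them at least 2-fold.

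**Figure D2:**
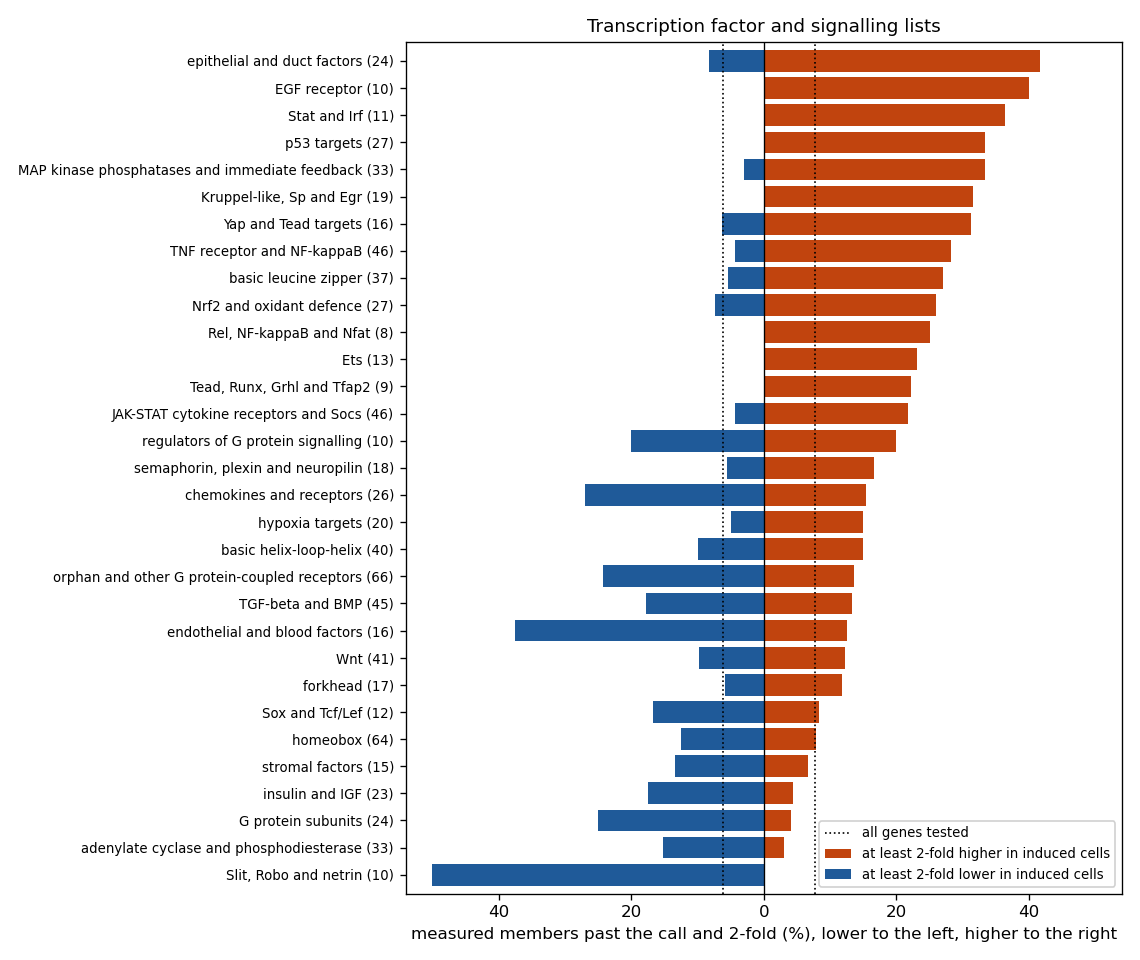
Share of measured members at least 2-fold higher (to the right) or at least 2-fold lower (to the left) in induced cells, for the transcription factor and signalling lists in which a share reached 1.5 times that of all genes. The number of measured members follows each name and dotted lines mark the shares of all genes (7.76% and 6.15%); epithelial and duct factors lie at the top and the Slit, Robo and netrin genes, none of which was 2-fold higher, at the bottom.

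Among signalling genes, the TNF receptor and NF-kappaB list rose on balance. Of its 46 measured genes, 22 were higher and 5 lower, 13 and 2 of them at least 2-fold. Tnfrsf12a, the receptor for the injury cytokine TWEAK, had signals of 290.0, 228 and 315 in induced cells, against 24.2, 25 and 20.3 in islets (3.04, adjusted p = 2.64e-08). Nfkbia, which encodes the inhibitor that NF-kappaB itself induces, had 251, 235 and 238 in induced cells, against 19.4, 18.7 and 27.6 in islets (2.91, adjusted p = 2.61e-07), and Tnfaip3, a ubiquitin-editing inhibitor of the pathway, had 233, 228 and 229 in induced cells, against 21, 18.9 and 22.3 in islets (2.89). No islet array reached the lowest induced array in any of them. Nfkbiz, an atypical inhibitor that works in the nucleus, rose by 2.30. The decoy receptor gene Tnfrsf11b, osteoprotegerin, was above background on no induced array and at least 3.00-fold lower (adjusted p = 2.28e-07).

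The upstream sequences of 3 higher genes in which an NF-kappaB consensus (GGG, then any 2 bases, then TTTCC, on either strand) occurs show how close it lies to the start. Capitals mark the match, and Cxcl1, a neutrophil chemokine, carries 2 of them (RefSeq, GRCm38.p6; Nfkbia chr12:55492648-55492716 minus strand, Tnfaip3 chr10:19015411-19015462 minus strand, Cxcl1 chr5:90891116-90891223 plus strand).
Nfkbia: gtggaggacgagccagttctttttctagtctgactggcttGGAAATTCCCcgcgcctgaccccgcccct
Tnfaip3: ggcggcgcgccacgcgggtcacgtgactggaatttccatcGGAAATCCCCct
Cxcl1: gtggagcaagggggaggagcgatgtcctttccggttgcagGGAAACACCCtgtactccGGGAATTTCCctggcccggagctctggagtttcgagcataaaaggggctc
The consensus lay within 250 bases before the start of 28 of 607 genes (4.61%) at least 2-fold higher, 10 of 481 (2.08%) at least 2-fold lower, in 146 of 8064 tested genes (1.81%) and in 447 of 27025 genes (1.65%) in all. Of the 10 list members at least 2-fold higher with a promoter sequence, Nfkbia and Tnfaip3 held it.

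Chemokines went both ways. Of 26 measured chemokine and receptor genes, 7 were higher and 11 lower, 4 and 7 of them at least 2-fold. Cxcl1 had signals of 456, 418 and 472 in induced cells, against 44.2, 38.1 and 37.3 in islets (3.15, adjusted p = 7.2e-10), and Cxcl16, a membrane-bound chemokine, of 79.4, 73.2 and 75.2 in induced cells, against 17, 20.8 and 17.8 in islets (1.53). Cxcl2, which attracts neutrophils as well, was above background on no islet array and at least 3.20-fold higher (adjusted p = 5.8e-06). Lower members were Ccl4, a macrophage chemokine, at 6.67, 8.95 and 7.05 in induced cells, against 77.2, 78.3 and 89 in islets (-2.26, other probe -0.98) and Cx3cl1, the membrane-bound fractalkine, at 4.94, 6.73 and 4.71 in induced cells, against 31.2, 31.5 and 34.7 in islets (-1.35). In both of these all induced arrays were below all islet arrays. Of 13 measured macrophage markers, at summed signals given above, 9 moved with the lower members and 3 were higher.

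Most p53 targets were higher. Of 27 measured genes, 18 were higher and 0 lower, 9 and 0 of them at least 2-fold, with a median of 0.53. At an unadjusted p below 0.05, limma's test gave 18 higher and 0 lower as well. Cdkn1a, the p21 cell cycle inhibitor, had signals of 1347, 1159.9 and 1639 in induced cells, against 73.2, 64 and 55.7 in islets (4.18, SE 0.13, adjusted p = 1.1e-09), with its other probe at 3.55. Phlda3, an Akt inhibitor, had 101, 96.1 and 98 in induced cells, against 0.863, 3.82 and 3.51 in islets (2.92, adjusted p = 2.7e-09), and Gadd45a, a growth arrest gene, had 392, 422 and 354 in induced cells, against 45.3, 54.5 and 49.6 in islets (2.70). The induced arrays were well above the islet arrays in each. The proapoptotic Pmaip1 was above background on no islet array and at least 3.44-fold higher (adjusted p = 2.67e-08). Of 26 caspase and Bcl2 family genes, 12 were higher and 4 lower, 4 and 0 of them at least 2-fold. E2f1, which drives entry into the cell cycle, fell by 1.03 on the log2 scale.

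In the EGF receptor list, receptor and processing genes were higher and the ligand Egf was lower. Of 10 measured genes, 8 were higher and 1 lower, 4 and 0 of them at least 2-fold. Hbegf, a membrane-bound ligand, had signals of 136, 134 and 148 in induced cells, against 12.8, 11.8 and 11.3 in islets (2.66, adjusted p = 6.78e-09), and Errfi1, a feedback inhibitor of the receptor, had 1747, 1725 and 1450.4 in induced cells, against 226, 201 and 250.4 in islets (2.80, adjusted p = 6.01e-09). For the receptor Egfr the signals were 45.6, 47.5 and 45.4 in induced cells, against 21.5, 18.3 and 19.7 in islets (0.87), and Rhbdf1, which traffics the ligand-shedding protease, rose by 1.74. Egf had 52, 54.1 and 53.3 in induced cells, against 109, 120.1 and 124 in islets (-0.99, adjusted p = 4.96e-06), all induced arrays below all islet arrays, and 469, 450.4 and 526 in non-islet cells.

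Of 33 measured MAP kinase phosphatases and feedback genes, 15 were higher and 6 lower, 11 and 1 of them at least 2-fold. Dusp26 had signals of 309.9, 310.4 and 359 in induced cells, against 31.5, 30.8 and 37.5 in islets (2.90, adjusted p = 5.36e-08), Dusp8 of 398, 415 and 365 in induced cells, against 38.2, 50.6 and 48.6 in islets (2.81) and Dusp4 of 86.9, 87.8 and 80.1 in induced cells, against 10.02, 12.2 and 10.9 in islets (2.08). These genes encode phosphatases that switch MAP kinases off, and no islet array overlapped an induced array in any of them. The other probe of Dusp4 stood at 0.50. Of the 9 genes at least 2-fold higher with a promoter sequence, Dusp1, Dusp8 and Errfi1 held TGACGTCA, the cyclic AMP response element, within 250 bases before the start. That element lay in 24 of 607 genes (3.95%) at least 2-fold higher, in 14 of 481 (2.91%) at least 2-fold lower, in 229 of 8064 tested genes (2.84%) and in 478 of 27025 genes (1.77%) in all. It is shown in capitals for Dusp8, which carries 2 (chr7:142095300-142095431, minus strand, RefSeq, GRCm38.p6).
Dusp8: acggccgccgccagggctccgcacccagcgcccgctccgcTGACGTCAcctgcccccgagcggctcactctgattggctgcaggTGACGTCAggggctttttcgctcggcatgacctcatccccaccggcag

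**Figure D3:**
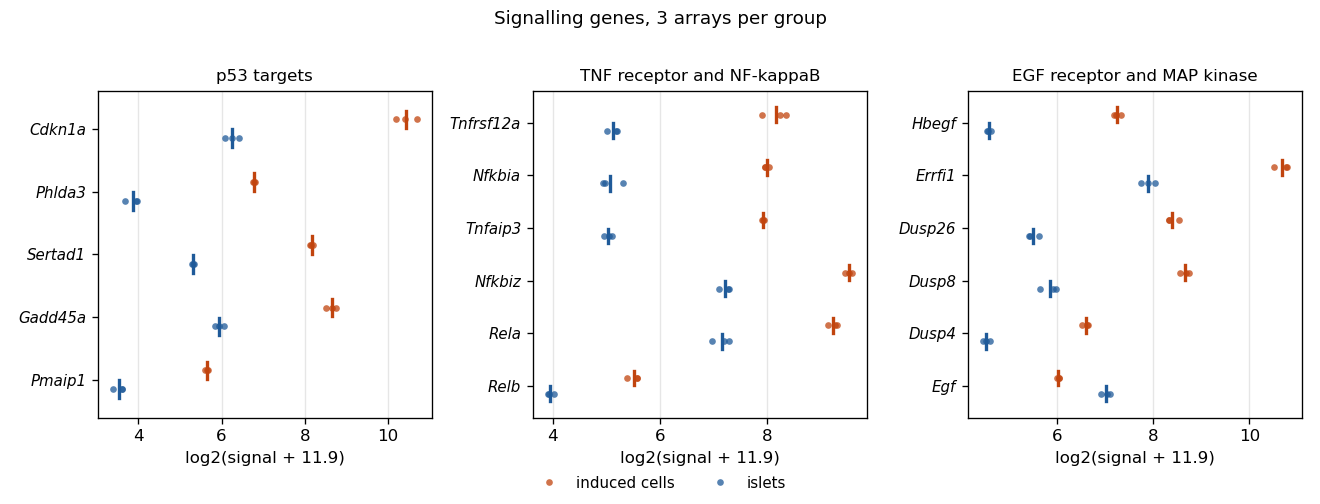
Signals of the leading p53, NF-kappaB and EGF receptor or MAP kinase genes. Each dot is an array on a log2 axis after the offset of 11.9, each vertical bar is the mean of 3 arrays, and induced cells lie above islets in every gene but Egf.

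Of the 46 measured genes of the JAK-STAT list, 22 were higher and 9 lower, 10 and 2 of them at least 2-fold. Ifngr2, a chain of the interferon gamma receptor, had signals of 174, 179 and 169 in induced cells, against 49.7, 52.1 and 53 in islets (1.55, other probe 0.56, adjusted p = 5.13e-08), and Cish, a feedback inhibitor of cytokine receptors, had 496, 510.2 and 468 in induced cells, against 188, 185 and 201 in islets (1.31). The kinase gene Jak3 and the signalling suppressor gene Socs4 rose by 1.49 and 1.64. Il6ra, the interleukin-6 receptor, was lower, at 18.9, 13.8 and 18.9 in induced cells, against 68.4, 57.3 and 61.9 in islets (-1.36, adjusted p = 9.07e-05). Downstream of interferon, 28 of 44 measured guanylate-binding, Ifi, Ifit and related genes were higher and 7 lower, 18 and 1 of them at least 2-fold. Rsad2, an antiviral enzyme, had signals of 448, 462 and 469.8 in induced cells, against 94.9, 85.1 and 103 in islets (2.15), and the immunity-related GTPase genes Irgm2 and Igtp had 99.9, 103 and 105 in induced cells, against 30.01, 27.8 and 30.1 in islets (1.48), and 86.4, 82.1 and 83.4 in induced cells, against 26.8, 32 and 29.3 in islets (1.22). All induced arrays were above all islet arrays in these genes.

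Of the 13 interferon-related genes at least 2-fold higher with a promoter sequence, 7 held the core of the interferon-stimulated response element (GAAA, then any 2 bases, then GAAA, on either strand) within 250 bases before the start. This core lay in 26 of 607 genes (4.28%) at least 2-fold higher, in 20 of 481 (4.16%) at least 2-fold lower, in 265 of 8064 tested genes (3.29%) and in 936 of 27025 genes (3.46%) in all. Capitals mark the match in 3 of the 7 (RefSeq, GRCm38.p6; Rsad2 chr12:26456523-26456612 minus strand, Irgm2 chr11:58214873-58214962 plus strand, Igtp chr11:58199482-58199555 plus strand).
Rsad2: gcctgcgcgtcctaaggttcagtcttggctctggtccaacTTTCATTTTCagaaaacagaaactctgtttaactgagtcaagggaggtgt
Irgm2: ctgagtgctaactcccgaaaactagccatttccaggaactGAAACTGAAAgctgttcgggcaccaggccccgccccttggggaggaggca
Igtp: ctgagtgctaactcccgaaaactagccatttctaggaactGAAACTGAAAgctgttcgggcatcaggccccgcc

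Developmental pathways were mixed. Of 41 Wnt genes, 11 were higher and 9 lower, 5 and 4 of them at least 2-fold, and the sign of the list's median relative to all genes turned under 3 scalings (common median, values as deposited and equal noise). Wnt4, a ligand made by beta cells, had signals of 24, 34.7 and 22.5 in induced cells, against 125, 123 and 124 in islets (-1.81, adjusted p = 1.06e-06). Fzd5, a receptor of epithelium, stood at 126, 126 and 113 in induced cells, against 32.9, 30.9 and 33.3 in islets (1.59, other probe 0.58), and Fzd6 was above background on no islet array, at least 4.32-fold higher (adjusted p = 9.77e-09). The corepressor gene Tle6 had 569, 592 and 508 in induced cells, against 77.1, 74.5 and 81.6 in islets (2.66) and 1029.8, 1033 and 1111 in non-islet cells. Of 45 TGF-beta and BMP genes, 11 were higher and 13 lower, 6 and 8 of them at least 2-fold, a list whose relative median turned in the values as deposited and with an offset of 50. Gdf10, a ligand of the family, had 6.11, 3.65 and 4.49 in induced cells, against 81.8, 88.7 and 76.3 in islets (-2.50), and Gdf3, a ligand of the early embryo, had 87.3, 93.8 and 85.8 in induced cells, against 3.57, 2.83 and 4.80 in islets (2.69). Eng, a coreceptor of endothelium, fell by 2.25 on the log2 scale together with the vascular Notch receptor Notch4 (-2.46, other probe -0.54).

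Of 23 insulin and IGF genes, 10 were higher and 6 lower, 1 and 4 of them at least 2-fold. Igfbp7, a binding protein abundant in endothelium, had signals of 237, 258 and 213 in induced cells, against 2061, 2679 and 2645 in islets (-3.31, adjusted p = 1.13e-08), Igfbp4 had 8.48, 11.2 and 10.2 in induced cells, against 66.6, 60.8 and 65.3 in islets (-1.80), and the receptor Igf1r fell by 0.79 on the log2 scale. All islet arrays were above all induced arrays in the binding proteins.

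Of 18 semaphorin, plexin and neuropilin genes, 5 were higher and 4 lower, 3 and 1 of them at least 2-fold, with Sema3f at 1.33 and the vascular coreceptor Nrp1 at -1.79, and the relative median turned with an offset of 50 and with the 6 compared arrays alone. Slit, Robo and netrin genes, which guide axons and growing vessels, were the list with the highest share of 2-fold falls among those with at least 8 measured genes, markers of cell types aside. Of 10 measured genes, 1 was higher and 6 lower, 0 and 5 of them at least 2-fold, with a median of -0.90. Robo4, the endothelial member, had signals of 3.33, 1.44 and 2.85 in induced cells, against 195, 219 and 226 in islets (-3.96, adjusted p = 4.62e-10). Robo1 had 6.26, 4.10 and 6.07 in induced cells, against 60.8, 64.5 and 66.8 in islets (-2.13, adjusted p = 2.39e-08), with its other probe at -0.42, and Robo2, a receptor of beta cells that maintains islet architecture in the mouse, had 11.9, 8.92 and 8.98 in induced cells, against 32.4, 27.5 and 36.3 in islets (-1.01). In all 3 the induced arrays lay below the islet arrays. Unc5b, a netrin receptor of vessels, fell by 1.59 on the log2 scale. Robo4 is itself a marker of endothelium, which moved with these genes.

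G protein subunits were lower on balance, whereas their receptors changed in both directions. Of 66 G protein-coupled receptor genes, 19 were higher and 25 lower, 9 and 16 of them at least 2-fold. These shares of 13.6% and 24.2% both exceeded those of all genes (7.76% and 6.15%), and the median was -0.07. P2ry1, an ADP receptor that raises insulin secretion, had signals of 7.44, 8.49 and 11 in induced cells, against 168, 175 and 174 in islets (-3.14, adjusted p = 6.95e-10), and the orphan receptor gene Gpr19 had 13.8, 14.3 and 12.4 in induced cells, against 85.7, 66.6 and 86.9 in islets (-1.84). Both were higher on every islet array and above background on no non-islet array. Ednrb, an endothelin receptor, fell by 3.59 on the log2 scale by its brightest probe, while the probe with the smallest change was not called (-0.41, adjusted p = 0.0948). Higher receptors included Ptger3, an inhibitory prostaglandin receptor, at 179.6, 169 and 194 in induced cells, against 12.9, 13.5 and 15.6 in islets (2.89, adjusted p = 2.17e-09), the galanin receptor gene Galr1 (1.69) and Ffar2, a receptor for short-chain fatty acids (1.19). Each of these 3 was higher on all induced arrays than on any islet array.

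Of 24 G protein subunits, 3 were higher and 14 lower, 1 and 6 of them at least 2-fold, with a median of -0.40. Gnas, the stimulatory alpha subunit, had signals of 296, 327 and 292 in induced cells, against 548, 834 and 729 in islets (-1.16, adjusted p = 3.64e-05), with its other probe at -0.72. Gng4, a gamma subunit of neurons and endocrine cells, had 143, 141 and 139 in induced cells, against 371, 349.6 and 363 in islets (-1.29), and Gnb5, the beta subunit that pairs with some regulators of G protein signalling, had 12.9, 13.2 and 15.4 in induced cells, against 65.5, 69.7 and 73.9 in islets (-1.66). No induced array reached an islet array in these genes. Gnb2 was the member at least 2-fold higher (1.10). Of 33 cyclic AMP genes, 5 were higher and 13 lower, 1 and 5 of them at least 2-fold: Pde8a, a cyclic AMP phosphodiesterase, had 80.4, 92.7 and 90.7 in induced cells, against 296, 297 and 314 in islets (-1.66), and Prkacb, a catalytic subunit of protein kinase A, had 1456, 1617 and 1433 in induced cells, against 2938, 3053 and 3120.1 in islets (-1.01). Of 10 regulators that shorten G protein signals, 2 were higher and 4 lower, 2 and 2 of them at least 2-fold: Rgs9 fell by 1.54 on the log2 scale and Rgs17 rose by 2.36.

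**Figure D4:**
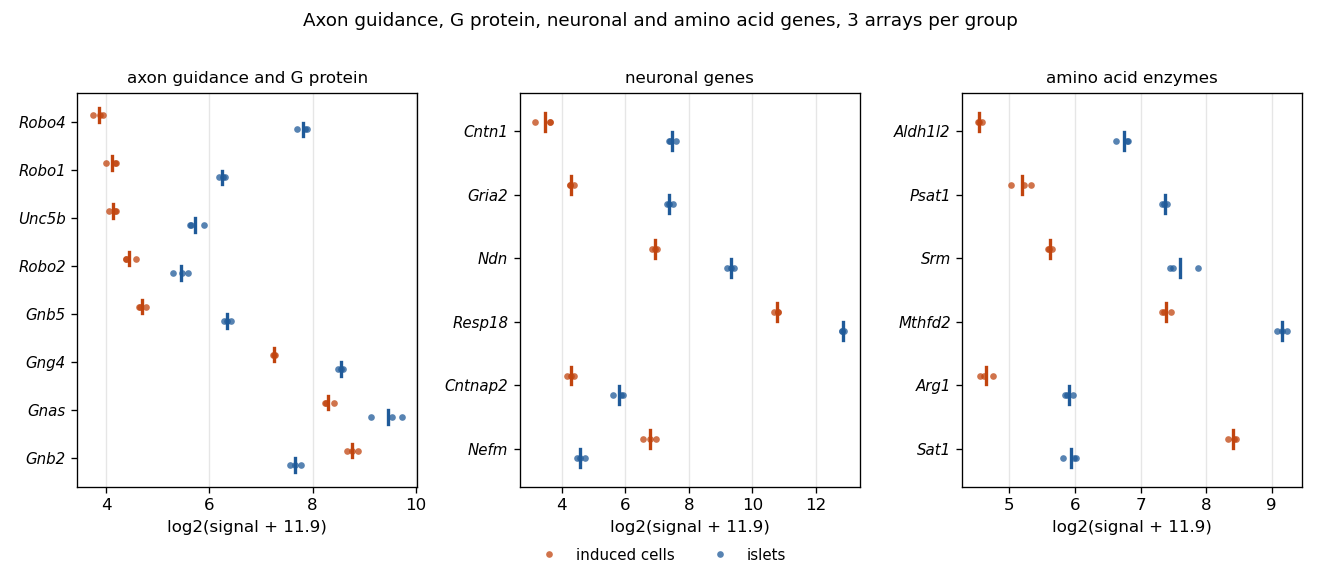
Signals of axon guidance and G protein genes, of neuronal genes and of enzymes of amino acid and polyamine metabolism. Each dot is an array on a log2 axis after the offset of 11.9 and each vertical bar is the mean of 3 arrays; induced cells lie below islets except in Gnb2, Nefm and Sat1.

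Genes shared by neurons and endocrine cells were lower on balance: of 45 in the neuronal cytoskeleton and adhesion list, 5 were higher and 20 lower, 2 and 10 of them at least 2-fold. Cntn1, a neural adhesion protein, had islet signals of 155, 158 and 179.7, was above background on no induced or non-islet array and was at least 12-fold lower in induced cells (adjusted p = 2.26e-09). Gria2, an AMPA glutamate receptor subunit, had signals of 9.21, 7.16 and 7.22 in induced cells, against 169, 146 and 153 in islets (-3.08, adjusted p = 7.2e-10), and Ndn, an imprinted gene of neurons, had 116, 104 and 110.3 in induced cells, against 581, 633 and 671 in islets (-2.39). Resp18, a protein of neuroendocrine secretory granules, had 1639, 1763 and 1769.7 in induced cells, against 7154, 7521 and 7154 in islets (-2.07). The islet arrays were above the induced arrays throughout these 3. The neurofilament gene Nefm went the other way, at 97.6, 83.1 and 115 in induced cells, against 14.5, 10.3 and 11.8 in islets (2.19, adjusted p = 9.9e-08). Rab3a, a GTPase of exocytosis, stood at 21.5, 21.9 and 18.5 in induced cells, against 122, 135 and 146 in islets (-2.17). Markers of beta and alpha cells, whose sums are given above, moved with these genes. Schwann markers were hardly measured, with 1 gene kept.

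Cell junction genes held more rises than falls. Of 28 claudin and tight junction genes, 12 were higher and 6 lower, 10 and 2 of them at least 2-fold, and 7 of 13 measured claudins were at least 2-fold higher against 1 at least 2-fold lower. Cldn4 had signals of 725, 816 and 826 in induced cells, against 150.3, 152 and 146 in islets (2.31, adjusted p = 2.66e-07), and Cldn3 had 139, 166 and 146 in induced cells, against 21.8, 24 and 18.8 in islets (2.28). Cldn2, a pore-forming claudin, was above background on no islet or non-islet array and at least 3.91-fold higher than in islets (adjusted p = 4.5e-08). Cldn10 rose by 2.11 with its brightest probe, but the probe with the smallest change was not called (0.01, adjusted p = 0.971). Cldn11 was lower, at 60.7, 46.4 and 56.1 in induced cells, against 171, 159 and 177 in islets (-1.45). All induced arrays were below the islet arrays there. Cadherins went both ways: of 16, 5 were higher and 7 lower, 3 and 4 of them at least 2-fold. The endothelial Cdh5 fell by 2.18 on the log2 scale, and the brightest probe of Cdh23, a cadherin of hair cells, by 3.00 with its other probes at -0.04 and 0.03, whereas Cdh1, E-cadherin, had 197, 162 and 202 in induced cells, against 45.1, 50.1 and 52.5 in islets (1.70, adjusted p = 1.43e-07), and Itga6, the integrin that binds laminin, had 117, 109 and 124 in induced cells, against 31.6, 30.6 and 35.7 in islets (1.52). Of 15 keratins, 9 were higher and 1 lower, 4 and 0 of them at least 2-fold. Cldn3 and Krt8 also stand in the duct marker list, so these families and that list are not separate evidence.

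Secreted mucosal proteins held many rises. Of 10 mucin, trefoil and gel genes, 5 were higher and 1 lower, 4 and 1 of them at least 2-fold. Dmbt1, a scavenger protein of mucosal surfaces, had signals of 12646, 13076 and 12646 in induced cells, against 22.1, 22.3 and 20.5 in islets and 802, 806 and 798 in non-islet cells, the largest rise of the comparison. Tff3, a trefoil peptide of goblet cells, had 112, 134 and 130.4 in induced cells, was above background on no islet or non-islet array and was at least 9.43-fold higher than in islets (adjusted p = 1.25e-09). The exception was the endothelial Emcn (-4.78). Of 23 galectin and C-type lectin genes, 11 were higher and 3 lower, 9 and 1 of them at least 2-fold. The Reg genes, secreted lectins induced in pancreatitis, made up several of these, with Reg3g at 151, 105 and 148 in induced cells, above background on no islet array and at least 9.99-fold higher (adjusted p = 8e-07). The other probe of Reg3b stood at 4.91, against 7.48 for the brightest, and Lgals9, a galectin of immune regulation, had 269, 276 and 263 in induced cells, against 18.3, 17.2 and 16.5 in islets (3.26, adjusted p = 3.91e-10). In these genes, Emcn aside, every induced array exceeded every islet array. Among 20 tetraspanins, 9 were higher and 5 lower, 4 and 2 of them at least 2-fold, and among 16 annexin and S100 genes, 6 were higher and 4 lower, 2 and 0 of them at least 2-fold. Of 9 integrins, 4 were higher and 0 lower, 2 and 0 of them at least 2-fold, and at an unadjusted p below 0.05 limma's test also gave 4 higher and 0 lower.

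Basement membrane genes went both ways. Among 20 collagens, 7 were higher and 9 lower, 0 and 4 of them at least 2-fold, with Col4a1 at 22.6, 28.8 and 21.5 in induced cells, against 249, 263 and 239.5 in islets (-2.86) and Col4a2 at 22.8, 17.7 and 17.9 in induced cells, against 448, 438 and 417 in islets (-3.83, adjusted p = 3.22e-10). Hspg2, the perlecan core protein, stood at 13.4, 14.2 and 10.6 in induced cells, against 128, 114 and 121 in islets (-2.43). Every induced array of these 3 was below every islet array. The epithelial laminin chain Lamb3 was higher, at 98.8, 98.7 and 95.1 in induced cells, against 3.85, 1.79 and 0.0693 in islets (2.99, adjusted p = 5.47e-09), and so was Lama5 (1.23). Of the 13 laminin, nidogen and perlecan genes, 3 were higher and 6 lower, 2 and 2 of them at least 2-fold. Endothelial markers moved with the lower genes.

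Actin genes held more rises than falls. Of 56 myosin and actin-binding genes, 29 were higher and 10 lower, 11 and 2 of them at least 2-fold, with a median of 0.33. Ezr, which ties actin to apical membranes, had signals of 851, 810.1 and 858 in induced cells, against 143, 157 and 173 in islets (2.33, adjusted p = 6.01e-09). The induced arrays were all above the islet arrays. The skeletal actin gene Acta1, a target of Srf, had 255, 255 and 235 in induced cells, against 20.7, 30.6 and 22.4 in islets (2.84), and the tubulin genes Tuba1c and Tubb6 rose by 2.91 and 2.54. The tubulin and stathmin list as a whole lay near the background, with a median of 0.01. Of its 20 measured genes, 6 were higher and 4 lower, 2 and 1 of them at least 2-fold. Ankrd1, a target of Yap and Tead, had 99.6, 112 and 92.4 in induced cells, against 2.81, 1.33 and 2.60 in islets (2.99, adjusted p = 4.77e-09), in a list of 16 Yap targets of which 8 were higher and 2 lower, 5 and 1 of them at least 2-fold. Axl, a receptor kinase of that list, fell by 2.32 on the log2 scale.

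**Figure D5:**
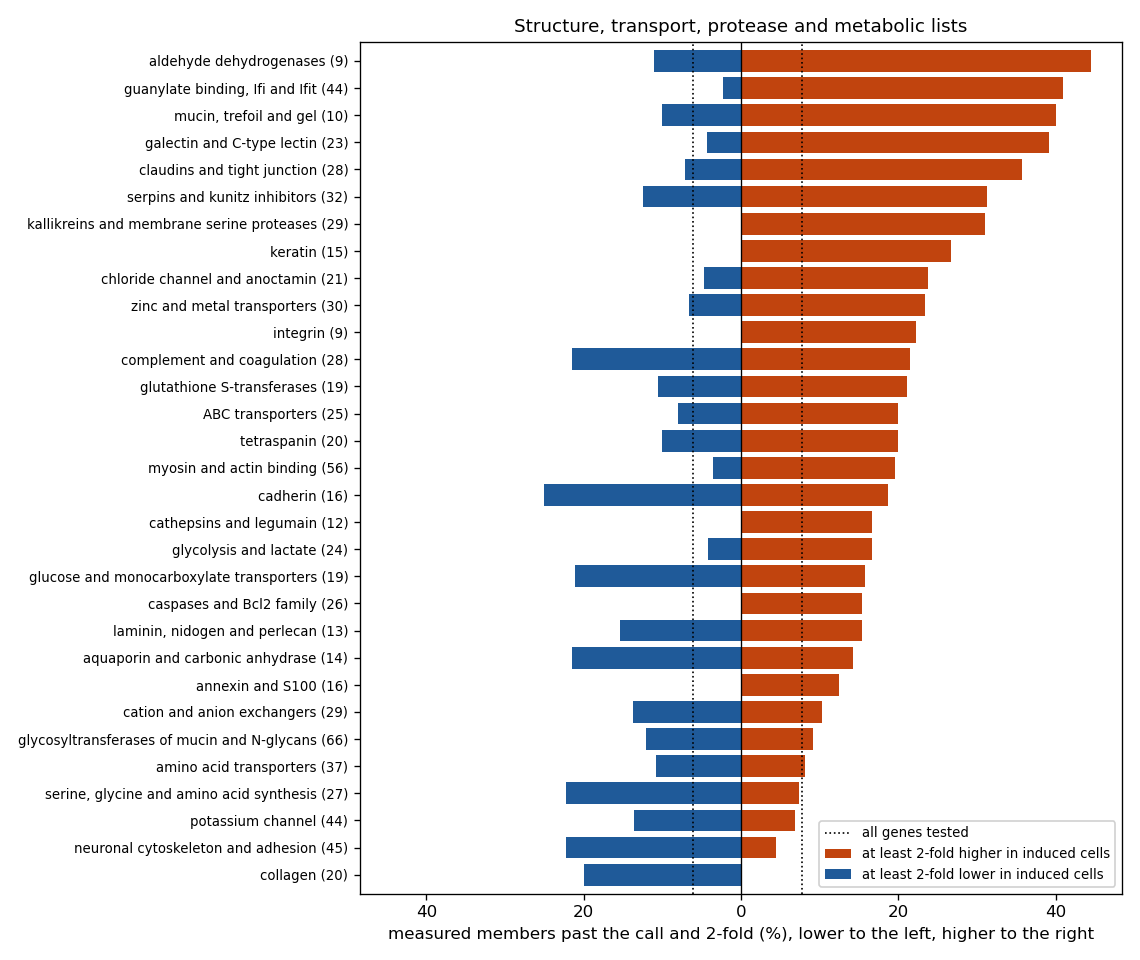
Share of measured members at least 2-fold higher (to the right) or at least 2-fold lower (to the left) in induced cells, for structural, transport, protease and metabolic lists, each with a share of at least 1.5 times that of all genes. The number of measured members follows each name and dotted lines mark the shares of all genes (7.76% and 6.15%); aldehyde dehydrogenases lie at the top (44.4% higher) and collagens, none of which was 2-fold higher, at the bottom.

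Channel and transporter genes changed in both directions. Of 44 potassium channel genes, 8 were higher and 17 lower, 3 and 6 of them at least 2-fold. Trpm5, a calcium-activated cation channel of beta and taste cells, had signals of 79.5, 76.7 and 91.9 in induced cells, against 740.2, 706 and 712 in islets (-2.95, adjusted p = 3.49e-09), with its other probe at -2.71. Slc38a5, a glutamine transporter of acinar and alpha cells, had 11346, 10722 and 11617 in induced cells, against 632, 670.0 and 660.4 in islets (4.08, adjusted p = 9.2e-11) and 2208, 2208 and 2537 in non-islet cells. Slc7a7, a cationic amino acid transporter subunit, had 171, 181 and 181 in induced cells, against 5.34, 4.75 and 3.83 in islets (3.52), while Slc6a17, a vesicular amino acid transporter of neurons, had 3.92, 7.61 and 6.60 in induced cells, against 89.1, 70.9 and 71.2 in islets (-2.31). Of 37 amino acid transporters, 8 were higher and 10 lower, 3 and 4 of them at least 2-fold, and their relative median turned with the common median and at equal noise. Slc12a8, of the cation and chloride cotransporter family, stood at 295, 284 and 299 in induced cells, against 12.4, 12.7 and 13 in islets (3.63) and 361, 340.0 and 340.0 in non-islet cells, and the chloride channel protein Clic6 at 208, 198 and 189 in induced cells, against 1.51, 2.81 and 1.38 in islets (3.93). The groups did not overlap in any of these. Fxyd3, a regulator of the sodium pump in epithelium, had 2208, 2181 and 2775 in induced cells, against 52.9, 37.9 and 30.1 in islets (5.54, adjusted p = 1.28e-09).

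Of 21 chloride channel and anoctamin genes, 7 were higher and 3 lower, 5 and 1 of them at least 2-fold, and of 29 cation and anion exchangers, 6 were higher and 10 lower, 3 and 4 of them at least 2-fold, the relative median of these exchangers turning with the common median and with equal noise. Of 19 glucose and monocarboxylate transporters, 8 were higher and 6 lower, 3 and 4 of them at least 2-fold: Slc16a6 had signals of 225, 241 and 256 in induced cells, against 29.99, 33.2 and 38.2 in islets (2.47), and Slc2a6, a member of the glucose transporter family, had 6.04, 4.99 and 3.93 in induced cells, against 47.3, 51.1 and 46.6 in islets (-1.83). Of 25 ABC transporters, 5 were higher and 6 lower, 5 and 2 of them at least 2-fold. Abcc3, an exporter of organic anions, was above background on no islet or non-islet array and at least 3.58-fold higher than in islets (adjusted p = 1.87e-07), whereas Abcb4, a phospholipid flippase, fell by 1.97 on the log2 scale. Of 14 aquaporins and carbonic anhydrases, 3 were higher and 5 lower, 2 and 3 of them at least 2-fold, with the endothelial Aqp1 at -1.87 and its other probe at -0.59.

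Of 30 metal handling genes, 12 were higher and 10 lower, 7 and 2 of them at least 2-fold. Slc30a1, which exports zinc from the cell, had signals of 167, 173 and 170.2 in induced cells, against 23.2, 27.2 and 30.9 in islets (2.23), and the metallothionein gene Mt2 had 267, 238 and 254 in induced cells, against 72.5, 64.3 and 69.1 in islets (1.72). Both were higher on all induced arrays. Of 27 genes of oxidant defence, 12 were higher and 9 lower, 7 and 2 of them at least 2-fold. Hmox1, heme oxygenase, had 73.7, 66.7 and 74.4 in induced cells, against 5.93, 8.71 and 5.84 in islets (2.16, adjusted p = 1.7e-07), and Osgin1, a stress-induced growth inhibitor, rose by 2.57. Gpx3, a secreted glutathione peroxidase, went the other way, at 286, 299.8 and 269 in induced cells, against 1586, 1594 and 1792 in islets (-2.49).

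Secreted and membrane serine proteases were mostly higher. Of 29 kallikreins and membrane serine proteases, 19 were higher and 2 lower, 9 and 0 of them at least 2-fold, with a median of 0.54. Prss8, prostasin, had signals of 164, 152 and 143 in induced cells, against 29.6, 28.7 and 26.5 in islets (2.04) and 552, 552 and 569 in non-islet cells. Tmprss2, a protease of epithelial surfaces, had 147, 159.9 and 143 in induced cells, against 32.5, 33 and 29.1 in islets (1.90, adjusted p = 2.23e-07). The glandular kallikrein Klk1b8 rose by 2.53, but the mouse kallikreins are near-identical copies that a probe may not separate. Of 32 serpins and related inhibitors, 12 were higher and 7 lower, 10 and 4 of them at least 2-fold. Serping1, the inhibitor of complement C1, had 829, 993 and 927 in induced cells, against 118, 123 and 103 in islets (2.88, adjusted p = 2.34e-09), and Serpina10, an inhibitor of coagulation proteases, had 125, 132 and 128 in induced cells, against 542, 439 and 488 in islets (-1.83). The induced arrays were all higher in Serping1 and all lower in Serpina10. Lgmn, a lysosomal protease, had 1037, 951 and 883 in induced cells, against 70.2, 89.6 and 86 in islets (3.37, adjusted p = 3.88e-09), and Ctsb, cathepsin B, had 2938, 2775 and 2838 in induced cells, against 840.0, 936 and 954 in islets (1.64). Of 12 genes of that kind, 4 were higher and 2 lower, 2 and 0 of them at least 2-fold.

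Complement and coagulation genes went both ways. Of 28, 10 were higher and 12 lower, 6 and 6 of them at least 2-fold. F2, prothrombin, had signals of 194, 182 and 210.1 in induced cells, against 16.6, 13.5 and 14 in islets (2.96, adjusted p = 5.16e-08), and Cd55, which protects cells from complement, rose by 1.92. Thbd, thrombomodulin of endothelium, had 10.8, 9.77 and 10.4 in induced cells, against 103, 108 and 136 in islets (-2.51, adjusted p = 4.88e-07), and Tfpi, the inhibitor of the tissue factor pathway, was above background on no induced array and at least 2.24-fold lower. Endothelial markers moved with these lower genes.

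Amino acid enzymes held more falls than rises. Of 27 genes of serine, glycine and other amino acid synthesis, 7 were higher and 15 lower, 2 and 6 of them at least 2-fold, with a median of -0.40. Psat1, of serine synthesis, had signals of 28.2, 20.7 and 25.4 in induced cells, against 153, 158 and 149 in islets (-2.17, adjusted p = 1.14e-08) and 632, 632 and 645 in non-islet cells. The mitochondrial folate enzyme genes Aldh1l2 and Mthfd2 fell by 2.20 and 1.77 on the log2 scale. Srm, spermidine synthase, had 36.8, 38.4 and 36.2 in induced cells, against 162, 224 and 168 in islets (-1.99), whereas Sat1, which breaks polyamines down, had 341, 312 and 333 in induced cells, against 51.6, 44.7 and 52.6 in islets (2.47, adjusted p = 7.02e-09). Srm was lower and Sat1 higher on every induced array than on any islet array. Both enzymes of polyamines are members of the same list. Of 9 aldehyde dehydrogenases, 7 were higher and 1 lower, 4 and 1 of them at least 2-fold. Aldh1a1, which makes retinoic acid, had 68.6, 71.8 and 74.5 in induced cells, against 9.09, 9.52 and 8.82 in islets (1.99), and Aldh1b1, an enzyme of pancreatic progenitors, was at least 2.26-fold higher (adjusted p = 3.16e-07).

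In glycolysis, Eno2, the neuronal enolase, had signals of 25, 24.8 and 24.8 in induced cells, against 208, 193 and 183 in islets (-2.49), while Pkm, pyruvate kinase, had 788, 819 and 765 in induced cells, against 406, 328 and 316 in islets (1.16, adjusted p = 4.68e-06). Of 24 genes there, 10 were higher and 5 lower, 4 and 1 of them at least 2-fold. Hadh, a fatty acid oxidation enzyme that also restrains glutamate dehydrogenase in beta cells, had 30.00, 33.6 and 33.1 in induced cells, against 294, 313 and 346 in islets (-2.90, adjusted p = 2.45e-09), with its other probe at -0.57. The groups did not overlap in these genes. Of 20 hypoxia targets, 8 were higher and 6 lower, 3 and 1 of them at least 2-fold, with Ldha, lactate dehydrogenase, which is kept low in beta cells, at 182, 193 and 172 in induced cells, against 9.51, 9.57 and 9.98 in islets (3.17, adjusted p = 4.76e-10). Of 19 glutathione S-transferases, 7 were higher and 3 lower, 4 and 2 of them at least 2-fold: Mgst1, a microsomal member, was above background on no islet or non-islet array and at least 5.18-fold higher than in islets (adjusted p = 2.77e-08), and Gstm1 fell by 1.19 on the log2 scale. Elovl4, which makes very long fatty acids, was at least 4.58-fold lower (adjusted p = 1.68e-08), and St6gal1, a sialyltransferase, stood at 79, 78.4 and 76.2 in induced cells, against 529, 535 and 517 in islets (-2.59), in a list of 66 glycosyltransferases of mucins and N-glycans of which 16 were higher and 24 lower, 6 and 8 of them at least 2-fold.

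Housekeeping families held few 2-fold changes. Of 69 mitochondrial ribosomal protein genes, 5 were higher and 31 lower, 0 and 2 of them at least 2-fold, with a median of -0.22. Relative to all genes that median was -0.18, but -0.04 with a common median and with equal noise. Of 38 genes of mitochondrial import and assembly, 3 were higher and 17 lower, 0 and 0 of them at least 2-fold. Mrps12, a protein of the small subunit, fell by 1.25 on the log2 scale (adjusted p = 1.02e-06). Proteasome subunits had 10 of 42 higher and 4 lower and cholesterol genes 8 of 21 higher and 6 lower, with 0 at least 2-fold in either list. Splicing factors had 10 of 92 higher and 20 lower, and the sign of their relative median turned with the scaling.

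Further large differences lay outside these families. Nptx2, a neuronal pentraxin, had signals of 421, 456 and 391 in induced cells, against 2.17, 5.24 and 4.45 in islets (4.78, adjusted p = 1.37e-09). Gast, the gastrin gene, which is expressed in the fetal but not the adult pancreas, had induced signals of 308, 289.7 and 379.6, was above background on no islet or non-islet array and was at least 23.1-fold higher than in islets (adjusted p = 2.36e-10). Pdrg1, a p53- and DNA damage-regulated gene, was likewise at least 14.1-fold higher (adjusted p = 1.82e-10). Cd9, a tetraspanin, stood at 639, 684 and 816 in induced cells, against 36.9, 28.3 and 31.3 in islets (4.04). On the lower side, Emilin1, an elastic fibre protein of vessels, and Dct, the melanin enzyme dopachrome tautomerase, were above background on no induced array and at least 13-fold and 12.9-fold lower (adjusted p = 1.36e-09 and 6.88e-10). The other probe of Dct stood at -2.91, against -3.91 for the brightest. Car10, a carbonic anhydrase-related protein without enzyme activity, had 7.39, 7.64 and 5.45 in induced cells, against 183, 197 and 202 in islets (-3.46), with every induced array below every islet array.

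Of the 771 genes at least 2-fold higher in induced cells, 272 (35.3%) were above background on no non-islet array and 413 (53.6%) on all 3. Among the 611 at least 2-fold lower, these were 244 (39.9%) and 291 (47.6%), and among all genes tested 2462 (24.8%) and 6165 (62.0%). Non-islet arrays had the higher noise, with a noise SD of 4.40 to 4.82 in the deposited values, against 1.48 to 2.05 on the arrays of the compared groups.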

How the data were processed

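The authors deposited intensity values of 24613 Illumina bead array probes, made with BeadStudio per the submitters' processing notes, whose version is not given in the sources used here. From the values, these intensities are linear and background-subtracted, with negative values and an equal mean on every array. Another deposited table, with 36 columns whose names are slide positions, could not be tied to samples through the labels and did not enter. Whether slide followed the group is not known.

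Values of all 9 arrays were quantile-normalized and log2 was taken after an offset of 11.9, which sets the lowest normalized value to 1. The noise SD of each array came from its values below 0 mirrored at 0, and a probe above 1.645 noise SD counted as above background. A probe was kept if this held for all 3 arrays of any group, which left 13928 probes, 12217 of them with a symbol, for 9937 genes, each represented by its brightest probe (1826 genes had several). Groups were compared with limma 3.58.1 in R 4.3.3 (lmFit and eBayes, 6 residual degrees of freedom), two-sided, with Benjamini-Hochberg adjustment over all kept probes. Where a gene had no array above background in 1 group and all in the other, the fold is a lower bound, the brighter group's mean against the lowest signal above background or the gene's own, if higher. The number of arrays limits the precision.

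Members and lists were chosen with earlier results of these data known. Named are the 15 largest rises and falls among called genes whose arrays do not overlap, the same among transcription factors, and up to 5 called members in each direction of every list. Genes named outside this rule were chosen after their values were seen: Dusp1, Igtp, Irgm2 and Rsad2 for their upstream sequences. There were 107 lists and 12 lists of cell type markers. A list is described where at least 8 genes were measured and the share of 2-fold changes was at least 1.5 times that of all genes, or as an example of a family near the background; 1 list is not reported here. Proteins with a Zfp symbol that bind RNA or actin were left out of the Zfp list after values were seen. Motifs were searched on both strands in the 250 bases before the start of 32851 RefSeq promoters (GRCm38.p6): those given with their letters, the CArG box and the AP-1 letters TGACTCA and TGAGTCA, which lay in 6.10% of genes at least 2-fold higher, 4.37% of those at least 2-fold lower, 4.25% of all genes tested and 5.16% of all. Sites of different motifs overlapped in 3 promoters.

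Replicate numbers are shared by the groups, and the labels do not say that they pair samples. The deviations of same-numbered arrays from their group means correlated at -0.09, 0.16 and -0.06, values too few to settle whether samples were paired. On simulated data for this comparison (13928 probes, 200 of them changed, 10 simulations) the fit recovered 45%, 91%, 99.2% and 100% of log2 changes of 0.5, 1, 2 and 4, and 6.26% of calls were false. The simulation drew independent normal log2 values and had no normalization step. In the real data far more probes were called, 3134 higher and 3641 lower. The simulated shares therefore hold for that setting alone. Alternatives were other offsets, scalings, filters, variance models, probes, arrays and a test against 1.5-fold.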

Additional observations from a re-analysis of the deposited data

How the results depend on the processing

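Without each of the 6 arrays in turn, the genes called numbered 2091 to 2122 higher and 2300 to 2357 lower, those at least 2-fold 732 to 761 higher and 584 to 592 lower, and transcription factors at least 2-fold 49 to 52 higher and 24 to 28 lower. A replicate block gave 2324 higher and 2626 lower, with 771 and 611 at least 2-fold. More genes were called without the non-islet arrays: the 6 compared arrays alone gave 2992 higher and 3488 lower, with 818 and 656 at least 2-fold. Array weights gave 3064 higher and 3558 lower, with 776 and 606 at least 2-fold. The main fit called 2387 and 2705, so the share of genes called depended on how the spread was estimated. An offset of 50, which shrinks dim changes by construction, left 373 and 217 genes and 30 and 8 transcription factors at least 2-fold. In the values as deposited these were 504 and 367 genes and 33 and 12 factors. With a common median 251 genes and 9 factors were at least 2-fold lower, and with equal noise 3869 genes were called higher; equal noise moved the median of all genes by 0.12 on the log2 scale. The cause of these shifts was not tested. Requiring signal above background on all arrays of both groups, which drops genes seen in 1 group, left 18 factors at least 2-fold lower. The test against a 1.5-fold change called 836 genes higher and 680 lower. Of the named genes only Cdh23 changed sign under an alternative, to 0.0272 with the probe of smallest change and with signal required on all arrays of both groups; Bhlha15, Cldn10, Ednrb, Etv1 and Fosl2 lost their call with the probe of smallest change, and Foxa2, Grhl2, Id1 and Igf1r in the test against a 1.5-fold change. Dim genes near background carry compressed differences, and folds of the brightest probes may be compressed as well, which was not tested.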
